A study of Gallus gallus with 31 samples.

Results

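The 6 genes described here, HPGDS, HSD17B12, AKR1B10, LDHA, LCAT and TGM2, encode enzymes of prostaglandin, fatty acid and steroid, aldehyde, lactate, cholesterol ester and protein crosslinking chemistry. They were chosen by their line difference, the log2 ratio of high growth minus low growth chickens, in these same arrays of anterior pituitary mRNA, and their members are all array spots whose platform gene symbol is one of these names. This gave 10 spots of the 19200 printed, and all 10 were among the 17193 spots that could be tested. HPGDS and HSD17B12 had 1 spot each, and AKR1B10, LDHA, LCAT and TGM2 had 2 spots each, which are told apart below by the print block (of 48) in which they lie. Because the line difference chose the genes, it is described with no test.

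Anterior pituitaries came from male meat-type chickens of a high growth (HG) line and a low growth (LG) line, which had been bred apart for juvenile body weight. One cDNA array per bird was hybridised with the bird's amplified RNA in Cy3 and a pool of all birds in Cy5, with no dye swap. The HG birds numbered 3 at week 1 and 4 at each of weeks 3, 5 and 7, and the LG birds numbered 4 at each of weeks 1, 3, 5 and 7. HG week 1 replicate 3 was not analysed here, and the lines were housed apart up to week 3 and together afterwards, so that line and pen cannot be told apart at the first ages. Every value is a log2 ratio of bird over pool, so that 1 unit is a 2-fold difference, and levels of different genes cannot be ranked from it.

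Hematopoietic prostaglandin D synthase (HPGDS) turns the common prostaglandin precursor into prostaglandin D2, and in mammals it is best known from mast cells and other immune cells. HSD17B12 carries out a reduction step of fatty acid elongation in the endoplasmic reticulum and, in humans, can also reduce estrone to estradiol. AKR1B10 is an aldo-keto reductase of aldehydes and retinal, LDHA is the subunit of lactate dehydrogenase that is typical of muscle, LCAT places fatty acids on cholesterol in lipoproteins, and TGM2 joins glutamine and lysine residues of proteins.

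Between 14786 and 18342 of the 19200 spots on an array were not flagged, and the median Cy3 signal was 2.58 to 6.28 times background. Hormone mRNA of the anterior pituitary was bright on some spots and dim on others. The median Cy3 signal was 83.9 times background for CGA (the common glycoprotein hormone subunit), 77.4 times for PRL (prolactin) and 22.9 times for TSHB (the thyrotropin subunit). GH was bright on 1 of its 2 spots (60.5 times) and dim on the other (1.92 times), and FSHB, the follitropin subunit (2.85 times), and both POMC spots (2.29 and 4.27 times) were dim. Across all tested spots the median line difference was 0.0010, and 58 spots passed an adjusted p of 0.05 (limma, Benjamini-Hochberg), 30 higher in HG and 28 higher in LG.

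A pair of week 1 arrays went against their labels. Over 168 spots of other genes that differed between lines when only weeks 3, 5 and 7 were fitted, the array labelled HG week 1 replicate 4 lay on the HG side of the midpoint for 44 of the 167 it measured, while the array labelled LG week 1 replicate 3 lay on the HG side for 131 of 162. The other HG arrays of week 1 lay on the HG side for 104 of 159 and 126 of 165 spots, and the other LG arrays for 69 of 158, 84 of 165 and 63 of 168. The leading spot of a gene is its spot of smallest line p. Of the 6 leading spots described below, the array labelled HG week 1 replicate 4 was on the HG side for 2. The array labelled LG week 1 replicate 3 was on the HG side for 6. Both arrays were kept under their labels, and the line value over ages of each enzyme spot is also given without them. They were singled out by their line values after the data had been seen, so line differences without them are descriptions and no test.

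HPGDS had the widest line difference of the 10 spots, with a higher mean in HG pituitaries at every age, though the lines overlapped at week 1. At week 3 the ratios were 0.58, 0.67, 0.82 and -0.036 in HG birds, against -1.22, -1.69, -1.31 and -1.84 in LG birds. At week 5 they were -0.76, 0.13, 0.58 and 0.58 in HG birds, against -1.44, -2.48, -2.15 and -2.58 in LG birds. At week 7 they were 0.050, 0.78, 0.93 and -0.10 in HG birds, against -1.57, -2.26, -2.16 and -2.04 in LG birds. The lowest of these 12 HG birds therefore lay above the highest of the 12 LG birds.

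At week 1 the HPGDS ratios were -0.42, 1.34 and -1.26 in HG birds, against -0.94, -1.97, 1.00 and -2.77 in LG birds. The groups overlapped through the array labelled HG week 1 replicate 4 (-1.26) and the array labelled LG week 1 replicate 3 (1.00). The difference, HG minus LG, was 1.06 (SE 0.58) at week 1, followed by 2.02, 2.30 and 2.42 at weeks 3, 5 and 7 (SE 0.54 each). Without those 2 arrays the week 1 difference was 2.36 (SE 0.49). Averaged over ages, the HG minus LG difference was 1.95 (SE 0.28), a 3.86-fold higher ratio in HG, and 2.27 (SE 0.21) or 4.84-fold without the 2 arrays.

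The HPGDS spot was dim in most LG birds. Its Cy3 signal was 5.53 to 15.5 times background in HG birds of weeks 3 to 7, against 2.2 to 4.1 times in LG birds of the same ages. It was under 3 times background in 1 of 15 HG birds and 9 of 16 LG birds. The size of the fold change therefore rests on LG signals near background. Over arrays with both channels at least 3 times background, the mean ratio was 0.31 ± 0.69 in HG birds (SD, n = 14) and -1.15 ± 1.01 in LG birds (SD, n = 7). This filter keeps the LG birds with the brighter Cy3 signal. Both sets still hold the arrays that went against their labels, HG week 1 replicate 4 (-1.26) and LG week 1 replicate 3 (1.00).

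HSD17B12 was also higher in HG pituitaries, by a smaller amount. At week 3 the ratios were 0.11, 0.29, 0.43 and 0.18 in HG birds, against -0.69, -0.82, -0.23 and -0.45 in LG birds. At week 7 they were 0.48, 0.25, 0.48 and 0.58 in HG birds, against -0.35, -0.52, -0.30 and -0.0034 in LG birds. The lines did not overlap at either age.

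At week 5 the HSD17B12 ratios were 0.092, 0.57, 0.27 and 0.27 in HG birds, against -0.29, -0.50, -0.27 and 0.15 in LG birds, where 1 LG bird reached into the HG range. At week 1 they were -0.044, 0.055 and -0.35 in HG birds, against -0.27, -0.48, 0.16 and -0.67 in LG birds. Here the lowest HG bird and the highest LG bird were again the 2 arrays that went against their labels. The difference was 0.20 (SE 0.18) at week 1, followed by 0.80, 0.53 and 0.74 at weeks 3, 5 and 7 (SE 0.17 each), and 0.48 (SE 0.20) at week 1 without the 2 arrays. The mean over ages was 0.57 (SE 0.087) or 1.48-fold, and 0.64 (SE 0.082) without them. The signal was at least 7.23 times background on every array.

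**Figure D1:**
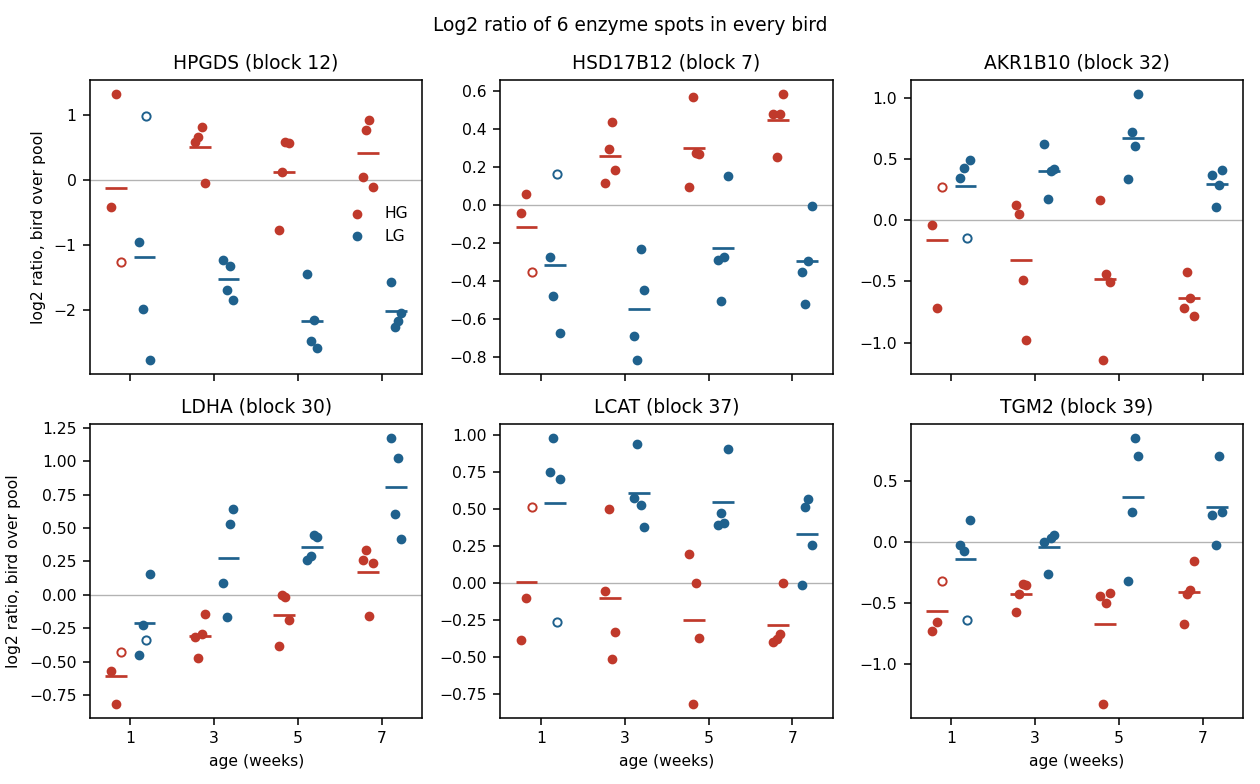
Log2 ratio of bird over pool (vertical axes, a scale of its own in each panel) by age in weeks for the leading spot of each of the 6 genes, HG (red) left of LG (blue). Each point is a bird, each bar a group mean, and open points are the 2 week 1 arrays that went against their labels. On these spots, the ones of smallest line p, HPGDS and HSD17B12 lie higher in HG, the other 4 lie higher in LG, and LDHA climbs with age in both lines. The second spots are not shown, and those of AKR1B10 and LDHA differed by 0.10 (SE 0.11) and -0.15 (SE 0.12).

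AKR1B10 was lower in HG pituitaries on its block 32 spot. At week 5 the ratios were 0.17, -1.15, -0.44 and -0.51 in HG birds, against 0.34, 0.72, 0.61 and 1.04 in LG birds. At week 7 they were -0.72, -0.42, -0.63 and -0.78 in HG birds, against 0.37, 0.11, 0.29 and 0.41 in LG birds. The lines were apart at both ages, and the HG birds were tightest at week 7.

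At week 3 the block 32 ratios of AKR1B10 were 0.12, 0.048, -0.49 and -0.98 in HG birds, against 0.63, 0.18, 0.40 and 0.42 in LG birds, without overlap. At week 1 they were -0.039, -0.72 and 0.27 in HG birds, against 0.35, 0.43, -0.14 and 0.50 in LG birds. The overlap at week 1 came from the array labelled LG week 1 replicate 3 (-0.14). The array labelled HG week 1 replicate 4 (0.27) was the highest HG bird but lay below the other LG birds. The HG minus LG difference was -0.44 (SE 0.26) at week 1, followed by -0.73, -1.16 and -0.93 at weeks 3, 5 and 7 (SE 0.24 each), and -0.80 (SE 0.30) at week 1 without the 2 arrays. Over ages it was -0.82 (SE 0.12), or 1.76-fold higher in LG, and -0.91 (SE 0.12) without them.

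The second AKR1B10 spot, in block 5, was bright and showed little line difference. Its ratios averaged -0.0031 in HG and -0.24 in LG (week 1), 0.37 in HG and 0.083 in LG (week 3), 0.19 in HG and 0.21 in LG (week 5), and 0.010 in HG and 0.11 in LG (week 7). The lines overlapped at all 4 ages, and the mean difference was 0.10 (SE 0.11), or 0.18 (SE 0.11) without the 2 arrays, which moved the week 1 difference to 0.54 (SE 0.26) from the 0.23 (SE 0.23) of all arrays. Both AKR1B10 spots had a Cy3 signal of at least 5.69 times background on every array, and over the 31 arrays their ratios correlated at r = -0.23 (Pearson).

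The spot next to it in block 5, which the platform table names PRKAB1 (a regulatory subunit of AMP-activated kinase), followed the block 32 spot of AKR1B10 at r = 0.93 over 31 arrays, and at r = 0.79 when group means had been removed. Its line difference was -0.76 (SE 0.11), or -0.84 (SE 0.11) without the 2 arrays, and at weeks 3, 5 and 7 its lines did not overlap. The study's own gene table gives this PRKAB1 spot the name AKR1B10, and it also gives the AKR1E2 spot described next the name AKR1B1 and the AKR1B1 spot in block 8 the name AKR1B10. Which gene each of these spots measured is therefore uncertain, and the platform names are used here. PRKAB1 was printed on 2 spots, and its other spot was not examined here.

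Genes related to AKR1B10 went in different directions. In the RefSeq table (assembly GRCg7b), AKR1B1, LOC418170, AKR1E2 and AKR1B10 lie near each other on chromosome 1. The single AKR1E2 spot was lower in HG, with means of -0.85 in HG and -0.14 in LG (week 1), -0.47 in HG and 0.17 in LG (week 3), -0.53 in HG and 0.32 in LG (week 5), and -0.14 in HG and 0.44 in LG (week 7). Its difference over ages was -0.70 (SE 0.16, adjusted p = 0.0489, limma), and it was called in 14 of 45 other settings. Without the 2 week 1 arrays the difference was -0.83, given with no test since those arrays were singled out by their line values. The AKR1E2 spot was under 3 times background on 6 arrays, which were replicate 1 of both lines at weeks 1, 3 and 5. On these arrays its ratios were -1.945, -0.45 and -0.71 in HG birds, against 0.34, 0.91 and 0.80 in LG birds. The size of the AKR1E2 difference therefore rests in part on signals near background, and over the 45 other settings it ran from -0.83 to -0.41. The AKR1B1 spots in blocks 8 and 11 instead differed by 0.34 (SE 0.093) and 0.29 (SE 0.091), neither past the threshold (adjusted p = 0.137 and 0.236), and by 0.36 and 0.32 without the 2 arrays. The LOC418170 spot differed by 0.10 (SE 0.069), or 0.091 without the 2 arrays. Spotted cDNA can bind mRNA of related genes, and how far these spots did so was not tested.

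LDHA on its block 30 spot was lower in HG pituitaries and rose with age in both lines together. At week 1 the ratios were -0.57, -0.82 and -0.43 in HG birds, against -0.45, -0.22, -0.33 and 0.15 in LG birds. At week 3 they were -0.32, -0.47, -0.29 and -0.14 in HG birds, against 0.090, -0.16, 0.53 and 0.64 in LG birds. At each of these ages 1 LG bird lay within the HG range.

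At week 5 the LDHA ratios were -0.38, -0.0032, -0.018 and -0.19 in HG birds, against 0.26, 0.29, 0.45 and 0.43 in LG birds. At week 7 they were 0.26, 0.33, -0.16 and 0.24 in HG birds, against 1.18, 0.61, 1.02 and 0.42 in LG birds. Every LG bird was above every HG bird at both ages. The HG minus LG difference was -0.39 (SE 0.19) at week 1, followed by -0.58, -0.51 and -0.64 at weeks 3, 5 and 7 (SE 0.18 each), and -0.52 (SE 0.23) at week 1 without the 2 arrays. Over ages it was -0.53 (SE 0.090), or 1.44-fold higher in LG, and -0.56 (SE 0.097) without them.

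Age had not been used to choose the genes and could be tested. Of the 10 spots, LDHA in block 30 was the 1 that passed (adjusted p = 0.00312, limma F over ages), where 0.576% of all tested spots did. Averaged over lines it was 0.39 higher at week 3, 0.51 at week 5 and 0.90 at week 7 than at week 1 (SE 0.13 each). The week 7 minus week 1 difference was 1.86-fold (adjusted p = 0.000321), and 1.01% of all tested spots passed that comparison. Leaving out the 2 arrays gave 0.92 (SE 0.15) at week 7 and an adjusted p of 0.0120 for age.

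Within a line, the LDHA increase to week 7 was 0.78 (SE 0.19) in HG and 1.02 (SE 0.18) in LG. Age within LG passed (adjusted p = 0.0460, with 0.145% of all tested spots called) and age within HG did not (adjusted p = 0.494, with 0.0931% called). The difference between these 2 increases was not tested. Among weeks 3, 5 and 7 alone the age effect of LDHA did not pass (adjusted p = 0.558).

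The second LDHA spot, in block 10, did not show the same pattern. Its means were 0.44 in HG and 0.28 in LG at week 1, 0.088 in HG and 0.39 in LG at week 3, 0.0063 in HG and 0.26 in LG at week 5, and 0.24 in HG and 0.42 in LG at week 7. The lines overlapped at every age, the difference over ages was -0.15 (SE 0.12), and the age effect did not pass (adjusted p = 0.932). The line value of this spot moved to -0.26 (SE 0.10) without HG week 1 replicate 1. That bird's ratio was 1.33, with a Cy5 signal of 1.38 times background, against 0.059 and -0.076 in the other HG birds of week 1. The line value was -0.083 (SE 0.12) without HG week 1 replicate 4. Without the 2 arrays that went against their labels it was -0.068 (SE 0.13). Over 31 arrays both LDHA spots correlated at r = 0.12.

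LCAT on its block 37 spot had a lower mean in HG pituitaries at every age, though the lines overlapped at weeks 1, 3 and 7. At week 1 the ratios were -0.39, -0.099 and 0.51 in HG birds, against 0.75, 0.98, -0.27 and 0.70 in LG birds. At week 3 they were -0.053, 0.50, -0.51 and -0.33 in HG birds, against 0.58, 0.94, 0.53 and 0.38 in LG birds. At week 1 the overlap came from the array labelled LG week 1 replicate 3 (-0.27), and at week 3 from HG replicate 2. The array labelled HG week 1 replicate 4 (0.51) was the highest HG bird of week 1 but lay below the other LG birds.

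At week 5 the LCAT ratios were 0.20, -0.82, 0.00058 and -0.37 in HG birds, against 0.39, 0.47, 0.41 and 0.91 in LG birds, with no overlap. At week 7 they were -0.40, -0.38, -0.34 and -0.0022 in HG birds, against -0.012, 0.51, 0.57 and 0.26 in LG birds, where 1 bird of each line met near 0. The HG minus LG difference was -0.53 (SE 0.28) at week 1, followed by -0.71, -0.79 and -0.61 at weeks 3, 5 and 7 (SE 0.26 each). Without the 2 arrays the week 1 difference was -1.06 (SE 0.27), so the order of the ages by size depends on these arrays. Over ages it was -0.66 (SE 0.13), or 1.58-fold higher in LG, and -0.79 (SE 0.11) without the 2 arrays.

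The second LCAT spot, in block 31, was dim on most arrays. In both channels it reached 3 times background on 10 of 31 arrays, and its median Cy3 signal was 1.49 times background while its highest was 75.1 times. Its line difference over all arrays was -0.46 (SE 0.15), -0.51 (SE 0.16) without the 2 week 1 arrays, and -0.25 (SE 0.061) with no background correction. On the 10 bright arrays its ratios averaged -0.16 ± 0.15 in HG birds (SD, n = 5), between -0.35 and 0.053, and 0.0095 ± 0.064 in LG birds (SD, n = 5), between -0.10 and 0.053. The highest of these HG values (0.053) came from the array labelled HG week 1 replicate 4, 1 of the 2 that went against their labels. The other HG values reached -0.096 at most, and the ranges of the lines overlapped with or without that array. The bright arrays included replicate 4 of HG at all 4 ages and of LG at weeks 3, 5 and 7. The spot correlated with the block 37 spot at r = 0.33 over 31 arrays, and at r = -0.027 when group means had been removed.

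**Figure D2:**
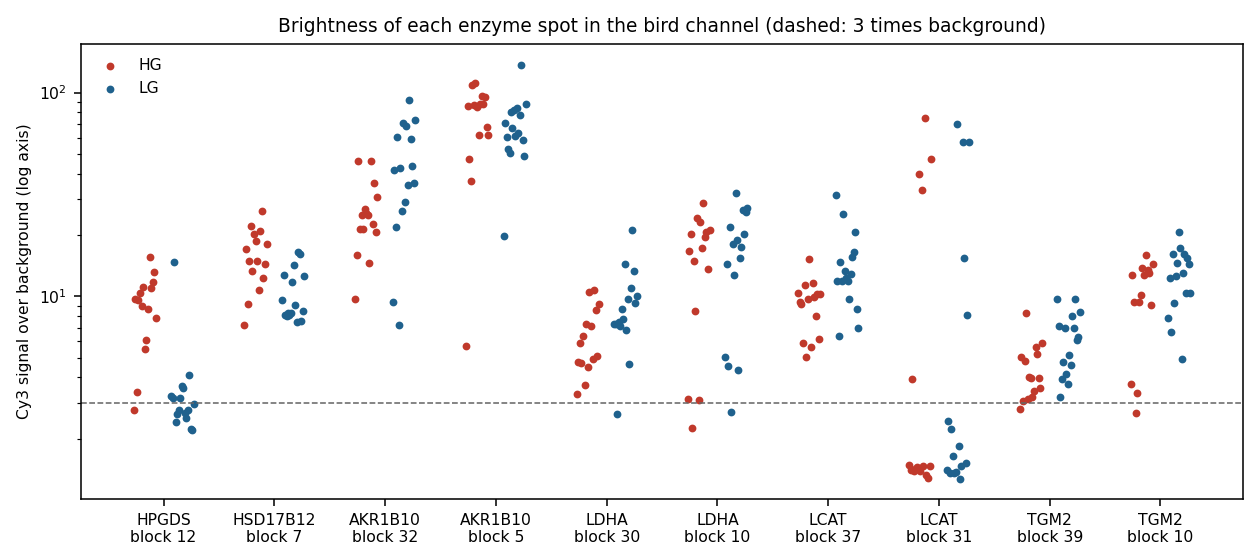
Cy3 signal over local background (log axis) of the 10 enzyme spots, each point a bird, HG (red) left of LG (blue), with a dashed line at 3 times background. HPGDS lay under the line in 9 of 16 LG birds and 1 of 15 HG birds, and LCAT in block 31 was split between dim arrays and bright ones.

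TGM2 was lower in HG pituitaries on both of its spots. On the block 39 spot, the week 5 ratios were -0.44, -1.33, -0.51 and -0.42 in HG birds, against -0.33, 0.24, 0.85 and 0.70 in LG birds. At week 7 they were -0.67, -0.43, -0.40 and -0.16 in HG birds, against 0.22, -0.029, 0.71 and 0.24 in LG birds. The lines did not overlap at either age, and at week 5 HG replicate 2 stood below its group.

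At week 3 the block 39 ratios of TGM2 were -0.58, -0.43, -0.35 and -0.36 in HG birds, against -0.0033, -0.26, 0.031 and 0.059 in LG birds. At week 1 they were -0.73, -0.66 and -0.32 in HG birds, against -0.030, -0.075, -0.64 and 0.18 in LG birds. Week 3 was again without overlap, and at week 1 the array labelled LG week 1 replicate 3 lay among the HG birds. The HG minus LG difference was -0.43 (SE 0.24) at week 1, followed by -0.38, -1.04 and -0.70 at weeks 3, 5 and 7 (SE 0.22 each), and -0.72 (SE 0.27) at week 1 without the 2 arrays. Over ages it was -0.64 (SE 0.11), or 1.56-fold higher in LG, and -0.71 (SE 0.11) without them.

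The block 10 spot of TGM2 gave the same order of the lines at weeks 3, 5 and 7, again without overlap at any of these ages. Its HG minus LG difference was -0.22 (SE 0.24) at week 1, followed by -0.57 (SE 0.22), -0.72 (SE 0.24) and -0.73 (SE 0.22) at weeks 3, 5 and 7, and -0.17 (SE 0.27) at week 1 without the 2 arrays. HG week 5 replicate 1 had no usable value on this spot, so that 3 HG birds stand for that group. Over ages the difference was -0.56 (SE 0.12), or 1.48-fold higher in LG, and -0.55 (SE 0.11) without the 2 arrays. The TGM2 spots correlated at r = 0.73 over 30 arrays, and at r = 0.43 when group means had been removed.

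**Figure D3:**
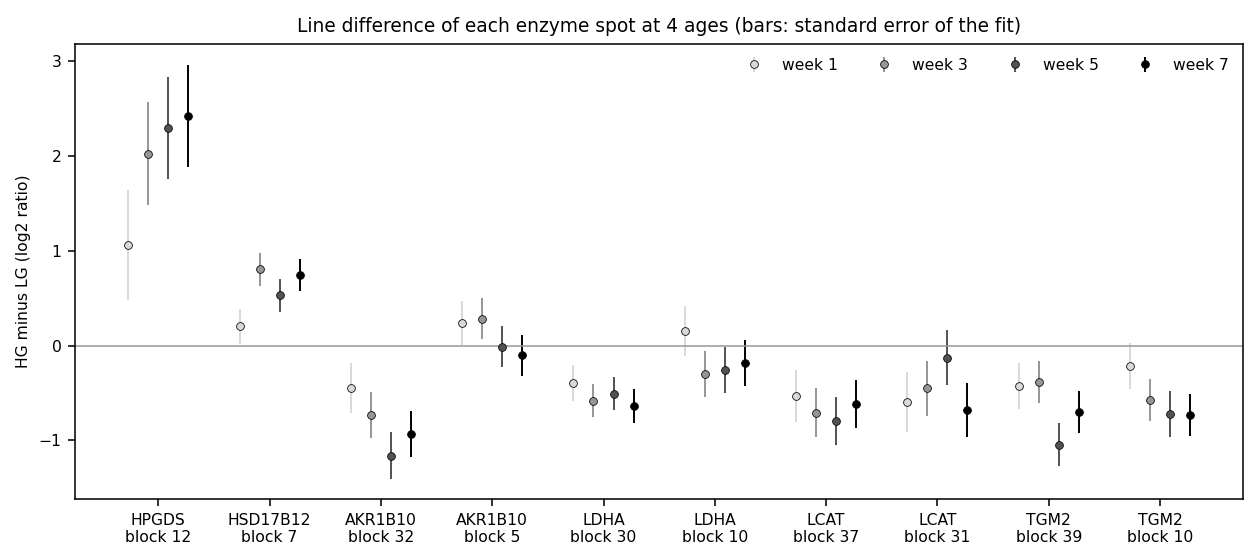
HG minus LG difference in log2 ratio (vertical axis) of the 10 enzyme spots at weeks 1, 3, 5 and 7 (light to dark), with the standard error of the fit. HPGDS lies between 1.06 and 2.42, HSD17B12 lies above 0 at every age, and AKR1B10 in block 5 and LDHA in block 10 lie on both sides of 0.

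In the fit over all spots, 7 of the 10 enzyme spots passed the threshold for line, 2 of them higher in HG and 5 higher in LG, where 0.337% of all tested spots passed, 0.174% higher in HG and 0.163% higher in LG. Nothing is read from these counts, since the same contrast chose the genes. The line difference of 8 spots kept its sign at all 4 ages, and AKR1B10 in block 5 and LDHA in block 10 did not. This too is a description, since the genes were chosen for a line difference that holds at each age. The positive week 1 difference of LDHA in block 10 rests on HG week 1 replicate 1 (1.33), whose Cy5 signal was 1.38 times background. The other HG birds were at 0.059 and -0.076, against an LG mean of 0.28.

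**Figure D4:**
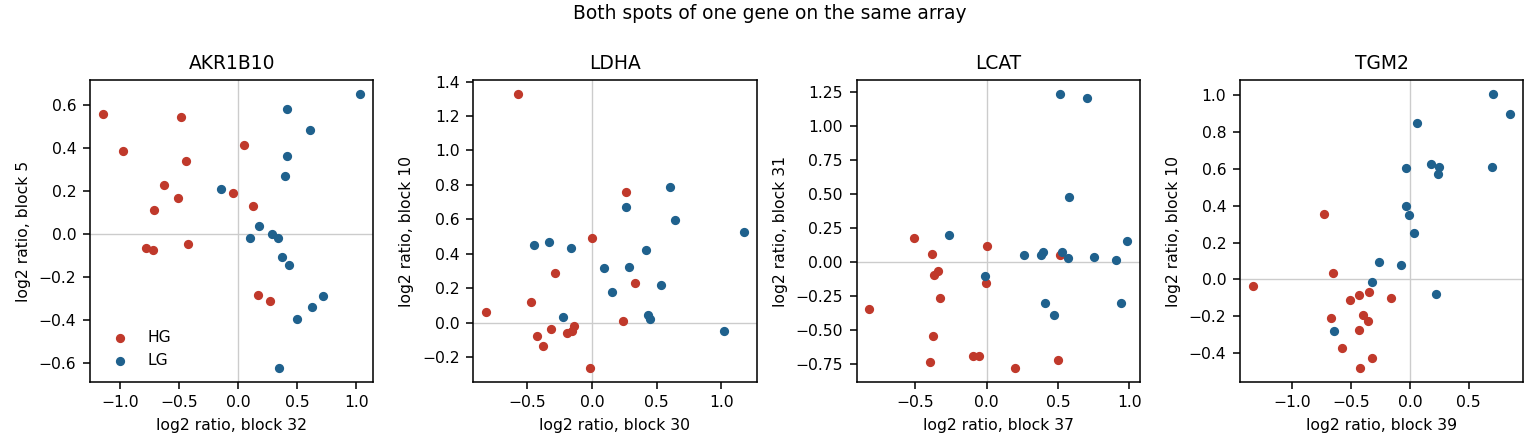
Log2 ratio of the leading spot (horizontal axes) against that of the second spot (vertical axes) of AKR1B10, LDHA, LCAT and TGM2, each point an array, HG in red and LG in blue. The TGM2 spots move together (r = 0.73), whereas those of AKR1B10 (r = -0.23) and LDHA (r = 0.12) do not. Those of LCAT correlate at r = 0.33, and at r = -0.027 when group means are removed, and the second LCAT spot was dim on most arrays.

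The other genes of each enzyme's pathway were read from 6 lists, which held 231 tested spots besides the 10 enzyme spots. Of these, 1 was called higher in HG and 1 higher in LG, or 0.866% of the list spots beside 0.337% of all tested spots, and none was called for age (limma, 20 with an unadjusted p under 0.05, beside 0.576% of all tested spots called). The lists were chosen with earlier results of these data known, so these shares are a description. Without the 2 week 1 arrays, 2 of 225 list spots were called higher in HG and 1 higher in LG, beside 0.973% of all tested spots. These counts without the 2 arrays are no test, since those arrays were singled out by their line values. For reading the counts of unadjusted p below, 1246 of all 17193 tested spots had an unadjusted p under 0.05 for line and 1480 for age.

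Among 18 tested spots of prostaglandin synthesis and handling, none was called for line, 4 had an unadjusted p under 0.05, and the median difference was -0.013. PTGDS, the lipocalin-type synthase that makes the same product as HPGDS, differed by 0.44 (SE 0.12, adjusted p = 0.124). PTGR1, a prostaglandin reductase, differed by -0.26 (SE 0.073, adjusted p = 0.142), and SLCO2A1, a prostaglandin transporter, by 0.21 (SE 0.095, adjusted p = 0.597). The PTGDS difference was positive at all 4 ages, and so was that of SLCO2A1.

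Among 38 spots of 17-beta-hydroxysteroid dehydrogenases and fatty acid elongation, 0 were called by limma, 5 had an unadjusted p under 0.05 and the median was -0.0013. FASN, the fatty acid synthase, differed by 0.38 (SE 0.089, adjusted p = 0.0670) on its leading spot, which was called in 14 of 44 other settings. Without the 2 arrays it differed by 0.44, given with no test since those arrays were singled out by their line values. Its second spot differed by 0.049 (SE 0.089). ELOVL5, an elongase that works upstream of HSD17B12 in the same cycle, differed by 0.32 (SE 0.14, adjusted p = 0.542) and by 0.19 without the 2 arrays, HSD17B13 by -0.44 (SE 0.19, adjusted p = 0.567) and FADS1, a desaturase, by -0.20 (SE 0.090, adjusted p = 0.616).

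Among 34 spots of aldo-keto reductases, the polyol pathway and aldehyde dehydrogenases, the 1 called was AKR1E2, described above, and the median was -0.0086. The aldehyde dehydrogenases ALDH4A1 and ALDH6A1 differed by 0.29 (SE 0.086, adjusted p = 0.198) and 0.17 (SE 0.079, adjusted p = 0.616).

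Among 59 spots of glycolysis and lactate handling, 39 had a positive difference and 20 a negative one, and the median was 0.044. The 1 called was ALDOC, an aldolase known from neural and endocrine tissue, which was 0.35 higher in HG (SE 0.071, adjusted p = 0.0180) and called in 44 of 45 other settings. Its means were -0.28 in HG and -0.44 in LG at week 1, 0.017 in HG and -0.45 in LG at week 3, 0.0087 in HG and -0.40 in LG at week 5, and -0.0098 in HG and -0.40 in LG at week 7. The called ALDOC spot was therefore higher in HG, while the LDHA spot of block 30 was lower in HG. The other ALDOC spots differed by -0.19 (SE 0.10), 0.27 (SE 0.14), 0.052 (SE 0.059) and -0.13 (SE 0.35), and none of these passed. PGAM1, PFKL and PDHX differed by 0.27 (SE 0.12), 0.18 (SE 0.093) and 0.29 (SE 0.16), with adjusted p of 0.570 to 0.775.

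Among 45 spots of cholesterol ester and lipoprotein handling, 0 were called by limma, 3 had an unadjusted p under 0.05 and the median was -0.015. APOA1, the HDL protein that activates LCAT, differed by 0.31 (SE 0.12, adjusted p = 0.391), HMGCS1 of cholesterol synthesis by 0.52 (SE 0.23, adjusted p = 0.621), SREBF2, the regulator of that pathway, by 0.22 (SE 0.12, adjusted p = 0.746) and LRP1, a lipoprotein receptor, by -0.41 (SE 0.17, adjusted p = 0.517). Among 37 spots of transglutaminases, matrix crosslinking and substrates, 0 were called, 5 had an unadjusted p under 0.05 and the median was 0.049. ANXA1, a known substrate of TGM2, differed by -0.21 (SE 0.057, adjusted p = 0.114), LOXL1, a lysyl oxidase, by 0.46 (SE 0.16, adjusted p = 0.335), ADGRG1, a receptor that binds TGM2, by 0.14 (SE 0.055, adjusted p = 0.442) and F13A1, the transglutaminase of clots, by 0.22 (SE 0.094, adjusted p = 0.561).

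**Figure D5:**
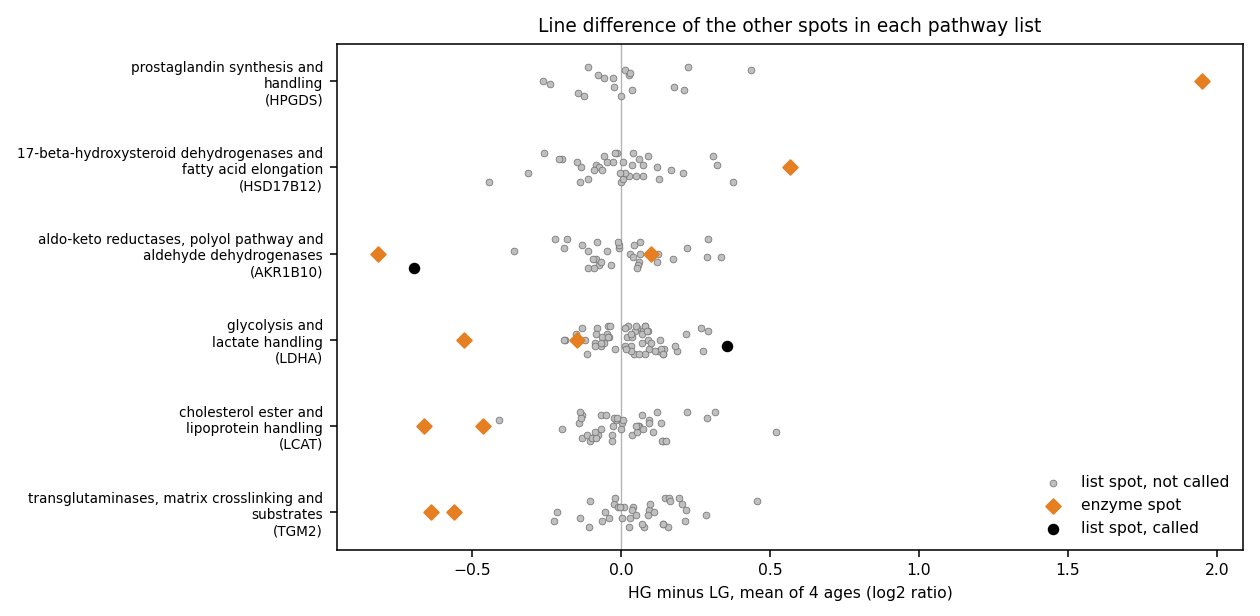
HG minus LG difference in log2 ratio, averaged over 4 ages (horizontal axis), of every tested spot in 6 pathway lists (grey, called spots black), with the enzyme spots of HPGDS, HSD17B12, AKR1B10, LDHA, LCAT and TGM2 as diamonds. The called spots are AKR1E2 (-0.70) and ALDOC (0.35), and HPGDS at 1.95 lies beyond all spots of its list.

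In whole tissue, fewer cells of a type and less mRNA per cell cannot be told apart, so hormone genes and markers of other cell types were read beside these results. Of 8 spots of pituitary hormones, 7 differed positively and 2 were called, both higher in HG, with a median of 0.15. TSHB was 0.86 higher in HG (SE 0.14, adjusted p = 0.00148) and the dim FSHB spot 1.15 higher (SE 0.22, adjusted p = 0.0114), or 0.95 and 1.25 without the 2 week 1 arrays. The mean hormone ratio per array was -0.33 to 0.14 in HG birds (median -0.028) and -0.87 to -0.048 in LG birds (median -0.40). None of 21 spots of macrophage, granulocyte, mast cell and thrombocyte markers was called for line (limma, 6 with an unadjusted p under 0.05), with a median of -0.10, 5 positive and 16 negative. Their mean ratio per array was -0.24 to 0.15 in HG birds and -0.19 to 0.35 in LG birds. MARCO, GATA2 and C1QB differed by -0.27 (SE 0.081), -0.30 (SE 0.10) and -0.36 (SE 0.14), and GATA2 is also known from the thyrotropes and gonadotropes of the pituitary. Of 20 fibroblast and pericyte spots, 1 was called, RGS5, at 0.30 higher in HG (SE 0.066, adjusted p = 0.0398) and called in 26 of 45 other settings. Of these 20 spots 6 had an unadjusted p under 0.05 and 14 were positive. The other RGS5 spots differed by 0.40 (SE 0.12) and 0.094 (SE 0.091), neither past the threshold, and DCN and OGN differed by 0.33 (SE 0.082) and -0.46 (SE 0.13). None of 16 spots of glia, posterior pituitary and neuron markers was called (3 with an unadjusted p under 0.05, 11 negative), with a median of -0.056, and SOX10, NEFL and CRYM differed by -0.47 (SE 0.16), 0.20 (SE 0.077) and -0.29 (SE 0.12). None of 28 endothelium spots (1 with an unadjusted p under 0.05), 24 liver and fat spots (0), 5 erythrocyte spots (0) or 2 lymphocyte spots (0) was called. The part of hormone cells and of these other cells in the enzyme values was not tested.

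The genes whose ratios were most like each enzyme over the arrays were found by Pearson correlation over at least 24 arrays, which all share the reference pool and the 2 lines. For HPGDS these were TAT (tyrosine aminotransferase, r = 0.87, 30 arrays), AP2B1 (r = 0.81, 30 arrays) and SDC1 (r = 0.79, 31 arrays), which differed between lines by 0.79, 1.29 and 0.89. For HSD17B12 they were ALDOC (r = 0.85), HSPA5, a chaperone of the endoplasmic reticulum (r = 0.83), and TSHB (r = 0.83), all over 31 arrays. For AKR1B10 they were the PRKAB1 spot described above, LCAT (r = 0.81, 31 arrays) and C12orf49 (r = 0.76, 28 arrays).

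For LDHA the nearest were ANKRD27 (r = 0.76, 31 arrays), OGN (r = 0.76, 26 arrays) and METAP1D (r = 0.75, 31 arrays). For LCAT they were AKR1B10 (r = 0.81), PRKAB1 (r = 0.74) and PHLDB1 (r = 0.72), all over 31 arrays, and for TGM2 SLC32A1 (r = 0.83, 29 arrays), ARIH1 (r = 0.74, 31 arrays) and CPNE1 (r = 0.74, 31 arrays). The likeness of LCAT and AKR1B10 was seen on their spots in blocks 37 and 32, where r was 0.59 when group means had been removed. Both genes were chosen by their line difference, so the r of 0.81 is a description and no test. LCAT in block 37 correlated at r = -0.35 with AKR1B10 in block 5, and LCAT in block 31 at r = 0.31 with AKR1B10 in block 32. When group means were removed, the nearest gene was PRKCQ for HPGDS (r = 0.77, 31 arrays), SUV39H2 for HSD17B12 (r = 0.91, 28 arrays), PRKAB1 for AKR1B10 (r = 0.79, 31 arrays), IL22RA1 for LDHA (r = 0.73, 31 arrays), OPTC for LCAT (r = 0.81, 29 arrays) and GPT2 for TGM2 (r = 0.77, 30 arrays). The PRKAB1 spot, which may itself be AKR1B10, was the 1 spot that stayed nearest to the same enzyme. Birds with the same replicate number deviated together from their group means (average r = 0.20, against -0.065 for other pairs), and this was not removed, so the correlations within groups also hold what same-numbered birds share. The PRKCQ and SUV39H2 spots both lie in print block 1, and these ratios were normalised per array and not per print block. The part of slide position in these correlations was not tested.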

How the data were processed

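Anterior pituitary RNA of 31 male chickens in 8 groups was hybridised, 1 two-colour array per bird, with Cy3 for the bird and Cy5 for the pool. The authors read the arrays with Spotfinder 2.2.4 and deposited intensity values with a local background for each channel. The authors also normalised them in MIDAS 2.18 and deposited log2 ratios of Cy3 to Cy5, used here as an alternative. Here intensities were background-corrected (normexp, offset 50), turned into log2 ratios and loess-normalised per array. Values flagged in either channel were left out, and a spot was tested if present on at least 16 arrays and at least 1 of each group. Group means were fitted in limma 3.58.1 (R 4.3.3), with Benjamini-Hochberg adjustment over all 17193 tested spots at 0.05, and the fit was tested on simulated data. The simulated birds varied independently, so that check did not cover deviations shared by same-numbered birds. The labels call the samples biological replicates, and p-values measure the spread between these birds. Birds with the same replicate number deviated together from their group means, and the main fit did not remove this. The spread therefore also holds what same-numbered birds share. The number of arrays and the signal over background limit the precision.

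The platform table gave 1 gene symbol to 10601 spots, of which 10455 had a gene ID in the RefSeq table. The 6 enzymes and the pathway and marker lists were chosen with earlier results of these data known. Named genes were all enzyme spots, every list gene called for line, up to 4 genes of each pathway list and up to 3 of a marker list by smallest p, each by its spot of smallest p, and the nearest genes by correlation. A header inside the file of HG week 1 replicate 1 names week 3, and the array was kept as week 1 by its label. Alternatives were other normalisations, background and flag rules, presence filters, priors, weights per array, a block for the replicate number and each array left out. Leaving out 2 week 1 arrays together and fitting weeks 3, 5 and 7 alone were added after the data had been seen.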

Additional observations from a re-analysis of the deposited data

Results flagged for a closer look

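In 69 groups of 4 birds on the 10 enzyme spots, 7 birds stood apart from the other 3 of their group by a gap that chance gives in about 1 of 20 groups. TGM2 in block 39 was -1.33 in HG week 5 replicate 2, with the nearest bird at -0.51. LCAT in block 37 was -0.0022 in HG week 7 replicate 4 (nearest -0.34) and 0.91 in LG week 5 replicate 4 (nearest 0.47). LCAT in block 31 was 1.21 in LG week 1 replicate 4 (nearest 0.20) and 1.24 in LG week 7 replicate 2 (nearest 0.050), on arrays where this spot was dim. AKR1B10 in block 5 was 0.23 in HG week 7 replicate 3 (nearest -0.047) and 0.58 in LG week 7 replicate 4 (nearest 0.00057).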

How the results depend on the processing

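The line difference of all 10 enzyme spots kept its sign under every alternative that gave a value. Every alternative reused arrays that had chosen the genes, so this describes the processing and is no test. Leaving out 1 array at a time gave 1.77 to 2.13 for HPGDS, 0.54 to 0.61 for HSD17B12, -0.87 to -0.75 for AKR1B10 in block 32, -0.57 to -0.50 for LDHA in block 30, -0.73 to -0.61 for LCAT in block 37, and -0.70 to -0.58 and -0.61 to -0.51 for TGM2 in blocks 39 and 10. The small difference of AKR1B10 in block 5 ran from 0.056 to 0.18 over all alternatives. HPGDS was 1.50 (SE 0.38) over spots with a signal at least 3 times background, with the 2 week 1 arrays kept. That filter left LG replicate 1 alone at week 5 and LG replicate 1 alone at week 7. HPGDS and LCAT in block 31 could not be fitted in the deposited table, nor LCAT in block 31 under that signal filter, nor TGM2 in block 10 over spots on all arrays. No LG bird of week 7 had a deposited HPGDS value.

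The age call of LDHA held with each array left out (adjusted p 0.0018 to 0.0130) and in all other alternatives except weeks 3, 5 and 7 alone (0.558), where 0 of the 10 enzyme spots were called and the week 1 arrays do not enter. One enzyme spot was called for age with each array left out.

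Spots of the pathway lists called higher in HG numbered 3 with print-tip loess or the signal filter, 2 with scaling between arrays, no background correction, without the 2 week 1 arrays and at weeks 3, 5 and 7 alone, 8 in the deposited table, 4 with array weights, and 0 to 2 with 1 array left out. Those called higher in LG numbered 2 with the signal filter, 0 with median centring, scaling, all flags or array weights, and 0 to 1 with 1 array left out. HMGCS1 turned to a negative difference when all positive spots were used (adjusted p = 0.976). Line calls without the 2 week 1 arrays are no test, here and over all spots below, since those arrays were singled out by their line values.

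Over all spots, line calls were 58, and 109 with no background correction, 188 in the deposited table, 94 with the signal filter, 105 with array weights, 161 without the 2 arrays, 178 at weeks 3, 5 and 7 alone, and 34 to 146 with 1 array left out, the lowest without HG week 1 replicate 1 and the highest without HG week 1 replicate 4. Age calls were 99, and 41 with median centring, 164 in the deposited table, 59 with all flags, 59 without the 2 arrays, 13 at weeks 3, 5 and 7 alone, and 56 to 125 with 1 array left out. With the replicate number as a block, 98 spots were called for line, 145 for age and 2 of the pathway lists higher in HG. Same-numbered birds correlated at 0.20 on average over 105 pairs, 78 of them over 0.1, and 27 of 31 arrays correlated best with their own number, which the labels do not explain, so the block is given here alone. Under the block HPGDS was 1.99 (SE 0.25) and the LDHA age adjusted p was 0.0046.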
